A study of Mus musculus with 6 samples.

Results

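The genes described here are 10 amino acid transporters, Slc3a2, Slc7a5, Slc7a6, Slc7a11, Slc7a1, Slc7a3, Slc1a4, Slc1a5, Slc38a2 and Slc6a9, in RNAseq of D2A1 spheroids that received recombinant SLURP1 protein (rSLURP1) or, as the control, recombinant GST (rGST). The 10 genes were chosen by symbol, with the difference between the treatments in these same libraries in view, and all 10 were found among the 54146 genes of the deposited table. Their differences are therefore a description, with no p-value, and counts of those called in the fit over all genes support nothing about them. D2A1 is a mouse mammary tumor cell line, and both groups were grown as a 3D culture in Matrigel in DMEM with fetal bovine serum. The genotype label reads Control or Recombinant-Slurp1, which names the added protein and no allele. The labels give 50 nM for each protein, the study's methods give harvest on day 5, and 3 libraries were made per treatment. The labels do not say whether the 3 libraries came from separate cultures, so p-values measure the spread between these libraries, which may be technical.

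Amino acid transporters carry amino acids across the plasma membrane, some by exchange of one amino acid for another and some driven by the sodium gradient. Slc3a2, the CD98 heavy chain, is bound through a disulfide bridge to a light chain of the Slc7 family, which does the transport, and it also binds integrin beta subunits. Tumor cells use these transporters for leucine, glutamine, cystine, serine, glycine and arginine. When amino acids are scarce, the kinase GCN2 phosphorylates the initiation factor eIF2 and translation of the transcription factor ATF4 rises. ATF4 together with C/EBP factors binds composite sites in genes of amino acid import and synthesis, among them several of the genes described here.

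Expression is given in TPM, a unit that takes transcript length into account, so that levels can be set side by side between genes, and that has a fixed sum per library. Fold changes are of log2(TPM + 1), rSLURP1 against rGST, and come out too small where TPM is low. Of the 12301 genes that reached 1 TPM in 3 or more libraries, 8.66% were called higher and 58.5% lower at an adjusted p of 0.05 or less in limma. The median log2 fold change of all tested genes was -0.33. Median-ratio scaling, in which libraries are matched on their typical gene, moved it to 0.01. With this scaling 26.6% of genes were called higher and 24.6% lower. The direction of a small change thus depends on the scaling, and changes are also given as the distance from that median. Read depth cannot be taken from TPM, and no counting error is given.

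Of the 6 mammary epithelial markers examined, Krt18 was the abundant one. Epcam, Krt5 and Krt14 were listed at 0 in all 6 libraries. Cdh1 did not exceed 0.07 TPM and Krt8 ranged from 0.51 to 1.66 TPM, whereas Krt18 was between 191.1 and 199.4 TPM. The 7 immune markers summed to 0.01 to 0.37 TPM and the 4 endothelial markers to 0.01 to 0.31 TPM. The 5 fibroblast markers, Pdgfra, Pdgfrb, Dcn, Lum and Col1a1, summed to 1007 to 1138 TPM with rGST and to 75.2 to 85.1 TPM with rSLURP1, and all 5 were called lower in limma. None of the 5 was at 0 in any library. No cells other than the D2A1 line are named for these cultures, so the markers alone do not show fibroblasts. In bulk RNA, fewer expressing cells and less RNA per cell cannot be told apart. The part of this difference in the transporter values was not tested.

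Of the 10 transporters, 8 had a higher TPM in every rSLURP1 library than in any rGST library, Slc7a6 had a lower TPM in every rSLURP1 library, and the libraries of Slc7a3 overlapped. The share of all genes that separate in this way was not counted, so nothing is read from the separation. Slc7a3 was below 1 TPM in 5 of 6 libraries and was not tested, and the other 9 exceeded 1 TPM in all 6. Of these 9, 7 were called higher and 1, Slc7a6, lower, beside the 8.66% and 58.5% of all tested genes. Slc38a2 was not among them, but it was called higher without rGST replicate 2, without rSLURP1 replicate 1 and without mitochondrial genes. With median-ratio scaling 8 were called higher and 0 lower, beside 26.6% and 24.6% of all tested genes, and Slc7a6 was the one not called. With a fold change of at least 2, 4 were called higher (Slc7a11, Slc6a9, Slc7a1 and Slc7a5), beside 1.15% of all tested genes, whereas 7.06% of all tested genes were lower by as much. Nothing is read from these counts, since the genes were chosen on this contrast.

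**Figure D1:**
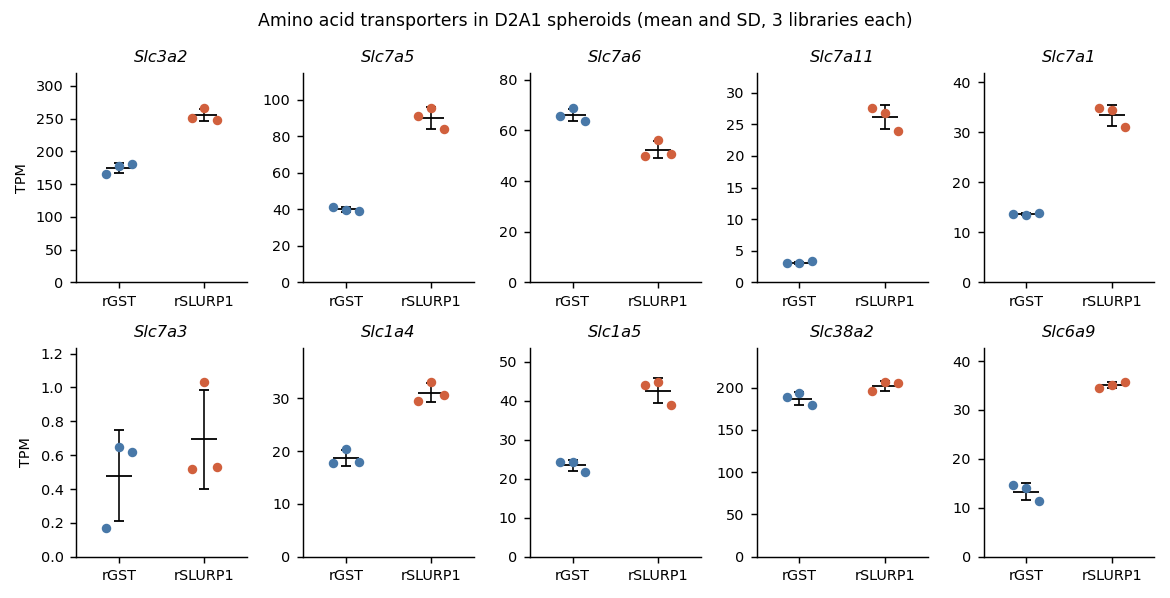
TPM (vertical axes, each starting at 0) of the 10 transporters in the 3 rGST libraries (blue) and the 3 rSLURP1 libraries (red), with the mean and SD in black. Slc7a6 is lower with rSLURP1, the libraries of Slc7a3 overlap near or below 1 TPM, and the other genes are higher with rSLURP1.

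The widest difference was in Slc7a11, or xCT, the light chain that brings cystine into the cell in exchange for glutamate. Slc7a11 (ENSMUSG00000027737.10; GRCm38, chr3:49892526-50443614, minus strand) had 3.02, 3.04 and 3.32 TPM with rGST and 27.55, 26.78 and 23.96 TPM with rSLURP1. The controls were thus low, and every treated library lay far above them, near the level of Slc1a4. Its mean TPM was 3.13 ± 0.168 in the controls and 26.1 ± 1.89 in the treated libraries (here and below, ± is the SD of 3 libraries), a ratio of 8.35. The log2 fold change was 2.71 (SE 0.085), or 3.04 from the all-gene median, and 16 of the 12301 tested genes had a larger one. Annotated genes that overlap Slc7a11 on either strand (pseudogenes and antisense transcripts) did not exceed 1.33 TPM in any library.

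The genes whose pattern over the 6 libraries lay nearest to Slc7a11 were Trib3, Cth, Il1a, Fabp4 and Csf3, with Euclidean distances of 0.22, 0.48, 0.50, 0.50 and 0.51 between log2(TPM + 1) values centred on each gene's mean. Their log2 fold changes were 2.76, 2.99, 2.67, 2.52 and 2.48, beside 2.71 for Slc7a11. They are thus genes with a treatment difference near that of Slc7a11, which was itself chosen on this contrast. Trib3, a pseudokinase that is a target and feedback inhibitor of ATF4, had 11.2 to 12.77 TPM with rGST and 77.22 to 95.46 TPM with rSLURP1. Cth, the enzyme that makes cysteine from cystathionine, had 3.08 to 4.43 TPM with rGST and 31.49 to 40.04 TPM with rSLURP1. Il1a, Fabp4 and Csf3 encode 2 cytokines and a fatty acid binding protein.

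The promoter of Slc7a11 is shown because it holds a pair of composite ATF4 and C/EBP motifs, searched as TGATGNAA and TTNCATCA so that both strands were covered. The sequences are from RefSeq (GRCm38.p6), which gave a window of 250 bases before to 50 after the start for 7 of the 10 transporters, and capitals mark the motif. The Slc7a11 stretch is chr3:50443633-50443719 on the minus strand, with matches that begin 66 and 47 bases before the start, and the Slc1a4 stretch is chr11:20332710-20332757 on the minus strand, with a match that begins 4 bases before the start.
Slc7a11: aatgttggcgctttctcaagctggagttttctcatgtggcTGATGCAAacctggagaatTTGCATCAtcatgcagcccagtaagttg
Slc1a4: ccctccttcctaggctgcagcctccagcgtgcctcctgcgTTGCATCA

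The motif was found in 2 of the 7 transporters with a window and in 4.51% of the 27025 genes with one. It was not found in the windows of Slc3a2, Slc7a1, Slc7a6, Slc38a2 and Slc6a9, and Slc7a5, Slc7a3 and Slc1a5 had no window in the sequences used. The NRF2 motif TGACNNNGC was found in 4 of the 7 (Slc6a9, Slc7a1, Slc7a6 and Slc38a2) and in 14% of all genes with a window. CACGTG, the E-box, was found in none of the 7 and in 8.09% of all genes. None of these matches overlapped one of another motif, and a match or its lack in a window of this length is only a description of the letters.

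Among the partners of the heavy chain, the heavy chain itself and Slc7a5 were higher with rSLURP1, while Slc7a6 was lower. Slc3a2 (ENSMUSG00000010095.13; chr19:8706882-8723369, minus strand) had 166.2, 177.8 and 180.7 TPM with rGST and 251.2, 265.9 and 248.1 TPM with rSLURP1. Every treated library was above every control. The mean TPM was 175 ± 7.67 and 255 ± 9.54, a ratio of 1.46, and the log2 fold change was 0.54 (SE 0.047), or 0.87 from the all-gene median. Slc7a5, or LAT1, which exchanges leucine and other large neutral amino acids for glutamine, had 41.46, 39.53 and 38.92 TPM with rGST and 91.10, 95.49 and 83.79 TPM with rSLURP1. Its TPM was thus more than doubled in each treated library. The gene (ENSMUSG00000040010.10; chr8:121881150-121907694, minus strand) had a ratio of means of 2.25 and a log2 fold change of 1.15 (SE 0.059), or 1.48 from the all-gene median. Gm20388, annotated over all of Slc7a5 on the opposite strand, was listed at 22.94 to 32.66 TPM with rGST and 20.19 to 29.91 TPM with rSLURP1. Reads of the 2 genes cannot be told apart without strand, which the sources used here do not give.

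Slc7a6, or y+LAT2, exchanges arginine and other cationic amino acids for neutral ones and sodium. It had 65.80, 68.83 and 63.83 TPM with rGST and 50.04, 56.16 and 50.84 TPM with rSLURP1. The groups did not overlap, and the treated libraries were the lower ones. The log2 fold change of Slc7a6 (ENSMUSG00000031904.5; chr8:106168857-106198706, plus strand) was -0.33 (SE 0.059), which lies 0.01 below the all-gene median (-0.01), and with median-ratio scaling it was 0.02. Slc7a6 thus lay at the median of the tested genes under both scalings.

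Ratios within a library do not change when a library is multiplied by 1 factor, as in median-ratio scaling, and they differed for each light chain. The light chains that pair with Slc3a2 are Slc7a5, Slc7a6, Slc7a7, Slc7a8, Slc7a10 and Slc7a11, of which Slc7a8 and Slc7a10 did not exceed 0.2 TPM. Slc7a5 held 26.1% to 26.9% of the summed light chain TPM with rGST and 47.0% to 48.3% with rSLURP1. Slc7a11 held 1.96% to 2.29% and 13.3% to 14.6%. Slc7a6 held 42.6% to 45.5% and 26.5% to 28.5%, and Slc7a7, or y+LAT1, another exchanger of cationic for neutral amino acids, held 26.3% to 28.6% and 10.5% to 11.6%. Slc7a6 was thus the most abundant light chain mRNA in all 3 control libraries and Slc7a5 in all 3 treated libraries. The ratio of Slc7a5 to Slc7a6 was 0.605 ± 0.0282 with rGST and 1.72 ± 0.0884 with rSLURP1.

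Relative to Slc3a2 itself, Slc7a5 was at 0.215 to 0.249 with rGST and at 0.338 to 0.363 with rSLURP1. Slc7a11 was at 0.0171 to 0.0184 and at 0.0966 to 0.110. The sum of the light chains was 145 to 154 TPM with rGST and 178 to 202 TPM with rSLURP1, but relative to Slc3a2 it was 0.802 to 0.929 and 0.719 to 0.760. The light chains together were thus higher in TPM and lower per heavy chain in the treated libraries.

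**Figure D2:**
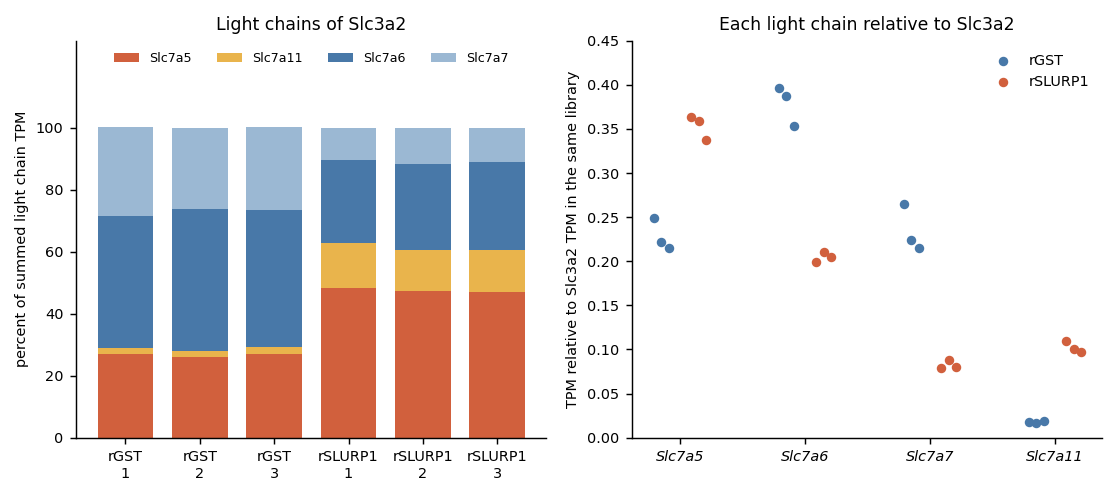
Left, the share of each light chain in the summed light chain TPM (percent, stacked bars) in each of the 6 libraries. Right, the TPM of each light chain relative to that of Slc3a2 in the same library (points, 3 libraries per treatment). Slc7a5 and Slc7a11 (red and yellow) take a larger share with rSLURP1, and Slc7a6 and Slc7a7 (dark and light blue) a smaller one.

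The cationic transporters Slc7a1 and Slc7a3, or CAT1 and CAT3, take up arginine, lysine and ornithine and need no heavy chain. Slc7a1 (ENSMUSG00000041313.14; chr5:148327410-148399904, minus strand) had 13.70, 13.54 and 13.91 TPM with rGST and 34.81, 34.39 and 31.00 TPM with rSLURP1. The control libraries were nearly equal and each treated library was more than 2-fold above them. The mean was 13.7 ± 0.186 TPM and 33.4 ± 2.09 TPM, a ratio of 2.43, with a log2 fold change of 1.22 (SE 0.065), or 1.55 from the all-gene median. Slc7a3 (ENSMUSG00000031297.14; chrX:101079210-101086020, minus strand) had 0.17, 0.65 and 0.62 TPM with rGST and 0.52, 1.03 and 0.53 TPM with rSLURP1. The treatments overlapped for Slc7a3, and with no filter its log2 fold change was 0.20 (SE 0.186).

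Slc1a4 and Slc1a5, sodium-coupled transporters of neutral amino acids, were both higher with rSLURP1. Slc1a4, or ASCT1, which carries alanine, serine and cysteine, had 17.72, 20.35 and 17.92 TPM with rGST and 29.52, 33.02 and 30.58 TPM with rSLURP1. Slc1a5, or ASCT2, its relative that also carries glutamine, had 24.16, 24.19 and 21.81 TPM with rGST and 44.05, 44.65 and 38.82 TPM with rSLURP1. No treated library of either gene overlapped a control. The log2 fold change was 0.71 (SE 0.075) for Slc1a4 (ENSMUSG00000020142.12; chr11:20302180-20332713, minus strand) and 0.83 (SE 0.074) for Slc1a5 (ENSMUSG00000001918.17; chr7:16781340-16798274, plus strand), or 1.03 and 1.16 from the all-gene median. The ratio of Slc1a5 to Slc1a4 within a library was 1.19 to 1.36 with rGST and 1.27 to 1.49 with rSLURP1, so the 2 paralogs kept overlapping proportions.

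Slc6a9, or GlyT1, takes up glycine. It had 14.61, 14.02 and 11.32 TPM with rGST and 34.48, 35.21 and 35.64 TPM with rSLURP1. The treated libraries lay close together and all were more than 2-fold above the controls. The ratio of means was 2.64 and the log2 fold change was 1.34 (SE 0.094), or 1.67 from the all-gene median, second among these transporters to Slc7a11. Slc6a9 (ENSMUSG00000028542.17; chr4:117834506-117875198, plus strand) overlaps B4galt2 and Ccdc24 on the opposite strand. B4galt2 had 33.35 to 39.85 TPM with rGST and 21 to 26.03 TPM with rSLURP1, and Ccdc24 did not exceed 2.37 TPM. Reads in these overlaps cannot be told apart without strand.

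Slc38a2, or SNAT2, the sodium-coupled transporter of alanine, glutamine and other small neutral amino acids, was abundant in both groups. It had 188.4, 194.1 and 179.1 TPM with rGST and 195.8, 206.3 and 205.0 TPM with rSLURP1. The groups did not overlap, but the lowest treated library was only slightly above the highest control. The log2 fold change of Slc38a2 (ENSMUSG00000022462.7; chr15:96687392-96699730, minus strand) was 0.11 (SE 0.044), or 0.44 from the all-gene median, and 0.47 (SE 0.039) with median-ratio scaling.

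**Figure D3:**
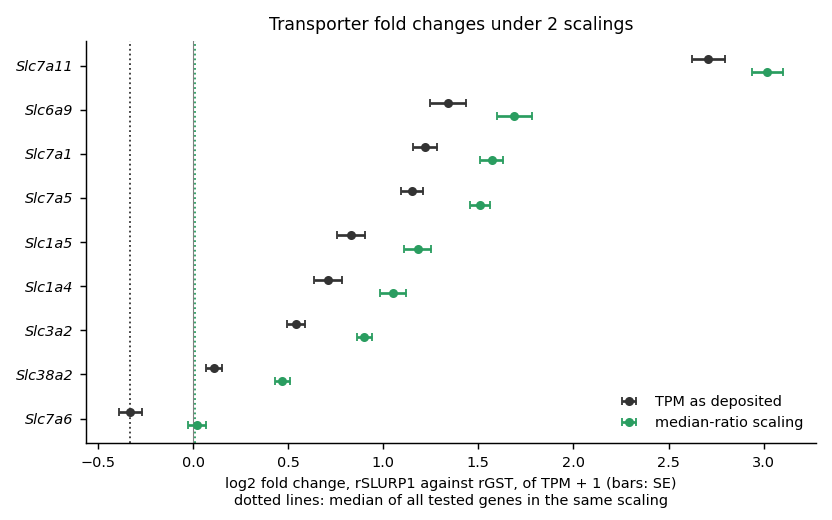
Log2 fold change of TPM + 1 (horizontal axis, bars are the SE) of the 9 tested transporters, with TPM as deposited (black) and with median-ratio scaling (green). Dotted lines mark the median of all tested genes, -0.33 and 0.01. Under both scalings 8 transporters lie to the right of that median, and Slc7a6 lies on it.

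In order of mean TPM, the rGST libraries had Slc38a2 (187), Slc3a2 (175), Slc7a6 (66.2), Slc7a5 (40), Slc1a5 (23.4), Slc1a4 (18.7), Slc7a1 (13.7), Slc6a9 (13.3), Slc7a11 (3.13) and Slc7a3 (0.480). The libraries of Slc38a2 and Slc3a2 overlapped, as did those of Slc7a1 and Slc6a9. With rSLURP1 the order was Slc3a2 (255), Slc38a2 (202), Slc7a5 (90.1), Slc7a6 (52.3), Slc1a5 (42.5), Slc6a9 (35.1), Slc7a1 (33.4), Slc1a4 (31.0), Slc7a11 (26.1) and Slc7a3 (0.693), with overlap between Slc6a9 and Slc7a1 and between Slc7a1 and Slc1a4.

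Plasma membrane transporters outside these 10 genes were mostly too low to be tested, and the 3 that were tested fell with rSLURP1. Of 36 other genes of this kind, 3 passed the filter, and all 3 were called lower in limma, as were 58.5% of all tested genes. Of those not tested, Slc3a1, a heavy chain related to Slc3a2, was the most abundant, with 0.60 to 0.66 TPM with rGST and 0.55 to 1.09 TPM with rSLURP1. Slc43a2, or LAT4, which lets large neutral amino acids pass without exchange, had 58.57, 59.09 and 61.02 TPM with rGST and 12.78, 14.83 and 15.51 TPM with rSLURP1. It fell in every treated library, with a log2 fold change of -1.98 (SE 0.076, adjusted p = 1.31e-06 in limma). Slc7a7 fell from 40.9 ± 2.80 to 21 ± 2.06 TPM (log2 fold change -0.93, SE 0.083, adjusted p = 5.77e-05 in limma). Slc6a6, the taurine transporter, fell from 222 ± 5.76 to 147 ± 5.90 TPM (log2 fold change -0.59, SE 0.043, adjusted p = 2.30e-05 in limma). The 3 genes were also called lower with median-ratio scaling, but Slc6a6 was not called once transcript length and GC content were corrected for (log2 fold change -0.09, adjusted p = 0.09 in limma). The fibroblast markers fell in the same libraries, whose part was not tested.

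Slc7a5 and Slc43a2 both carry large neutral amino acids, and their ratio was 0.672 ± 0.0351 with rGST and 6.32 ± 0.869 with rSLURP1. Over all 46 plasma membrane transporters the sum was 856 to 879 TPM with rGST and 934 to 991 TPM with rSLURP1. The 10 chosen genes held 61.8% to 63.2% of that sum with rGST and 80.0% to 81.3% with rSLURP1. They were chosen with this contrast in view, so nothing is read from their larger share. Slc3a2 held 20.2% ± 0.801 with rGST and 26.8% ± 0.213 with rSLURP1, and Slc6a6 held 25.6% ± 0.679 and 15.4% ± 0.607. Slc38a2 held an overlapping share in both, 21.6% ± 0.703 and 21.2% ± 0.592.

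Among all 171 tested solute carrier genes, a set drawn by symbol after the data were seen, 32 were called higher and 86 lower in limma, beside 8.66% and 58.5% of all tested genes. Their median log2 fold change was -0.23, and with median-ratio scaling 66 were called higher and 30 lower, beside 26.6% and 24.6%. These counts include the tested transporters described above, which were chosen on this contrast. Without them, 25 of 162 genes were called higher and 85 lower, with a median of -0.25. With median-ratio scaling, 58 of the 162 were called higher and 30 lower. Among all 171, those higher by at least 2-fold numbered 6, of which 4 were the transporters named above. The others were Slc16a6 (log2 fold change 1.34, SE 0.174), a monocarboxylate transporter relative, and Slc22a29 (1.19, SE 0.247), an organic anion transporter relative. Those lower by at least 2-fold also numbered 6, with Slc43a2 the lowest.

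Carriers of amino acids across internal membranes were called lower in part. Of 9 lysosomal carriers, 8 were tested and 5 of them were called lower in limma, beside 58.5% of all tested genes, with a list median of -0.31 near that of all genes (-0.33). Ctns, the lysosomal cystine exporter, fell from 37.9 ± 0.418 to 27.1 ± 1.26 TPM (log2 fold change -0.47, SE 0.054, adjusted p = 1.81e-04 in limma), and Slc38a7 fell from 54.6 ± 3.20 to 41.8 ± 4.15 TPM (log2 fold change -0.38, SE 0.079, adjusted p = 0.00381 in limma). Slc15a4 and Slc36a1 had log2 fold changes of 0.00 and -0.06 and overlapped between treatments. Of 11 mitochondrial carriers, 9 were tested, and 8 were called lower and 1 higher, with a list median of -0.41. Slc25a12, an aspartate and glutamate carrier, fell from 39.9 ± 3.84 to 20.7 ± 1.87 TPM (log2 fold change -0.91, SE 0.093, adjusted p = 1.05e-04 in limma). Sfxn3, Sfxn1 and Slc25a44, of which Sfxn1 carries serine and Slc25a44 branched-chain amino acids, had log2 fold changes of -0.36, -0.29 and -0.41. The one higher gene, named after its values were seen, was Slc25a29, a carrier of basic amino acids, with 3.59 ± 0.448 TPM with rGST and 6.25 ± 0.811 TPM with rSLURP1 (log2 fold change 0.66, SE 0.129, adjusted p = 0.00277 in limma). With median-ratio scaling, 1 lysosomal and 1 mitochondrial carrier were called higher and 1 of each lower, beside 26.6% and 24.6% of all tested genes. The direction of these lists thus rests on the scaling. Under it Slc25a12 was still lower and Slc25a29 higher, while Ctns, Slc38a7, Sfxn3, Sfxn1 and Slc25a44, with log2 fold changes between -0.12 and 0.06, did not pass.

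Among the genes that sense amino acids for mTORC1, Sesn2 was the one called higher. Of 34 genes, 33 were tested, and 22 were called lower and 1 higher in limma, beside 58.5% and 8.66% of all tested genes, and 10 did not pass. The median of the list was -0.34, close to that of all genes. Sesn2, a leucine sensor that holds mTORC1 back and is a known ATF4 target, rose from 11.65, 12.79 and 13.56 TPM to 26.08, 29.09 and 25.99 TPM (log2 fold change 1.04, SE 0.079, adjusted p = 2.82e-05 in limma). Its relatives Sesn1 and Sesn3, named after their values were seen, fell, with log2 fold changes of -0.61 and -0.80 (adjusted p = 2.97e-04 and 8.75e-05 in limma). Mtor, the kinase itself, fell from 57.1 ± 2.67 to 21.2 ± 0.777 TPM (log2 fold change -1.39, SE 0.057, adjusted p = 1.80e-06 in limma). Deptor, an inhibitory subunit, fell from 12.6 ± 0.237 to 4.85 ± 0.0819 TPM (log2 fold change -1.21, SE 0.075, adjusted p = 1.09e-05 in limma). The most abundant genes of the list, Lamtor2, Rheb, Sec13 and Lamtor5, had log2 fold changes of -0.21, -0.13, -0.16 and -0.02, and Rheb and Lamtor5 did not pass the test. With median-ratio scaling, 11 genes of the list were called higher and 9 lower, beside 26.6% and 24.6% of all tested genes. Sesn2 was then still called higher and Mtor, Deptor, Sesn1 and Sesn3 lower, whereas Lamtor2 and Sec13 turned to 0.15 and 0.20. Rheb and Lamtor5 turned to 0.23 and 0.34 and were called higher (adjusted p = 0.0046 and 0.0078 in limma).

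Genes of the integrated stress response moved in both directions. Of 16 genes, 8 were called higher and 6 lower in limma, beside 8.66% and 58.5% of all tested genes. With median-ratio scaling 10 were called higher and 4 lower, beside 26.6% and 24.6%. Atf4 mRNA rose from 116 ± 5.69 to 371 ± 23.6 TPM (log2 fold change 1.67, SE 0.058, adjusted p = 8.22e-07 in limma). Trib3 and Chac1, which degrades glutathione, rose with log2 fold changes of 2.76 and 2.25, and Atf5, Atf3 and Ddit3 with 1.39, 1.62 and 1.27. Eif2ak4, which encodes GCN2 and was named after its values were seen, fell with a log2 fold change of -1.0 (SE 0.061, adjusted p = 1.03e-05 in limma), and Eif2ak2 and Nupr1 fell with -1.20 and -1.16. Cebpb, the most abundant gene of the list, rose with 0.41.

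Downstream of cystine import, the genes of glutathione metabolism moved in both directions. Of 11 genes from cystine to glutathione, 9 were tested, and 3 were called higher and 3 lower in limma, beside 8.66% and 58.5% of all tested genes. Cth rose from 3.70 ± 0.681 to 36.4 ± 4.42 TPM (log2 fold change 2.99, SE 0.131, adjusted p = 2.46e-06 in limma), and Gclm, the modifier subunit of glutamate-cysteine ligase, rose from 54.5 ± 2.46 to 66.5 ± 2.06 TPM (log2 fold change 0.28, SE 0.051, adjusted p = 0.00185 in limma). Gpx4, which uses glutathione to reduce lipid peroxides, had a log2 fold change of 0.04 and overlapped between treatments, and with median-ratio scaling it was 0.41 and passed. Nfe2l2, which encodes NRF2, and its inhibitor Keap1 fell with log2 fold changes of -0.53 and -0.77. With median-ratio scaling, 6 genes of this list were called higher and 2 lower, beside 26.6% and 24.6% of all tested genes.

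**Figure D4:**
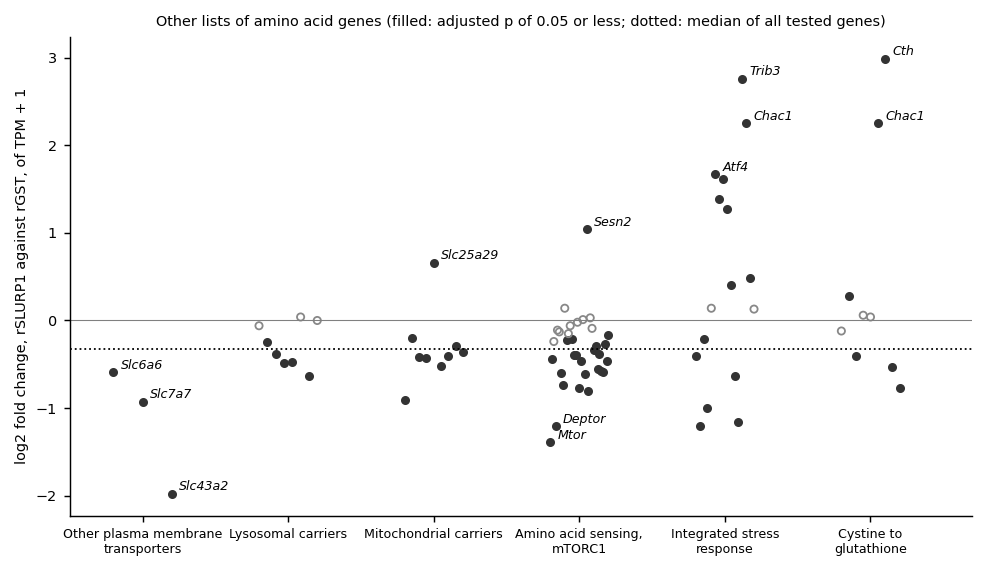
Log2 fold change of TPM + 1, rSLURP1 against rGST (vertical axis), of the tested genes in the 6 other lists of amino acid genes, 1 point per gene. Filled points have an adjusted p of 0.05 or less in limma, and the dotted line is the median of all tested genes, -0.33. The 3 other plasma membrane transporters lie below that line, and the highest points are Cth, Trib3, Chac1 and Atf4.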

How the data were processed

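RNAseq of 6 libraries was used, 3 of rSLURP1 and 3 of rGST spheroids, grouped by sample title. For these libraries the authors deposited RSEM gene values in TPM, made from Cutadapt-trimmed reads that STAR (version 2.5.2b) had mapped to mm10. The labels name RSEM version 1.3.3 and Cutadapt version 1.18, and the methods name other versions and the GENCODE M12 annotation. For library preparation, TruSeq mRNA stands in the labels and Smart-seq2 in the methods. Coordinates are from GENCODE M21 (GRCm38, the same build). Genes that reached 1 TPM in 3 or more libraries were tested on log2(TPM + 1) with limma (version 3.58.1, R 4.3.3; eBayes with trend, two-sided), with Benjamini-Hochberg adjustment over all 12301 genes. Calls used an adjusted p of 0.05 and, where stated, a fold change of 2, the thresholds of the study's methods. The study's methods describe DESeq2 for the sorted cells, and the labels of these libraries also name DESeq2, without a version. It is a test for counts and does not apply to TPM. The test was checked on simulated data.

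The members and the other gene lists were chosen with earlier results of these data known. Genes named from the other lists were those called with a fold change of at least 2 and the 4 with the highest mean TPM, with others marked as named after their values were seen, and not all are reported. In the lists, 4 genes were matched through another symbol (Slc66a1, Castor1, Castor2 and Bmt2). Read depth is unknown, since TPM does not keep it, and precision rests on 3 libraries per treatment. Alternatives were another pseudocount (0.1), other filters, median-ratio and quantile scaling, mitochondrial genes left out, eBayes without trend, a loess correction (span 0.3) for transcript length and GC content, the replicate number as a block and each library left out. Protein sequences were not analysed here.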

Additional observations from a re-analysis of the deposited data

How the results depend on the processing

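Of 144 log2 fold changes of the 9 tested transporters under the alternatives, 107 moved by less than the spread between replicates, 34 moved by more in the same direction and 3 reversed. The other filters, eBayes without trend and the replicate block alone cannot change these fold changes, so part of the 107 was fixed in advance. The reversed ones were Slc7a6, at 0.024 with median-ratio scaling and 0.063 after the correction for length and GC content, whether or not the replicate block was added. Relative to the median of all genes, Slc7a6 ranged from -0.05 to 0.03 and Slc7a11 from 2.99 to 3.37. The median over the 9 transporters, 0.83 as deposited, was 1.185 after median-ratio scaling, 1.195 after quantile normalization and 1.203 after the correction. Adding the block to the correction cannot alter this median, since each replicate number occurs once per treatment.

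Lysosomal and mitochondrial carriers called numbered 14 as deposited, 4 by median-ratio scaling, 5 by quantile normalization, 5 by the correction and 3 when the block was added to it. Amino acid sensing and mTORC1 genes called went from 23 to 13 under the correction and block together. Quantile normalization had 9 of these genes higher and 7 lower, and the correction 11 and 6. Over all genes, quantile normalization had 3111 higher and 2905 lower and the correction 3313 and 2701, against 1065 and 7200 as deposited.

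Same-numbered libraries of the treatments had correlations of -0.061 to -0.034 between their deviations from the group means. These correlations do not show whether such libraries shared a culture or a day. With the replicate block alone, 7962 genes were called in place of 8265. Among genes of the lists, leaving out any of the 6 libraries lost Slc36a4 (adjusted p 0.0532 to 0.146 in limma). Slc25a13 was lost without rGST 1, rGST 2 or rSLURP1 1, Nprl2 without any rGST library or rSLURP1 1, Eif2ak3 without rGST 2, rGST 3 or any rSLURP1 library, and Ppp1r15a without rGST 1. Gained were Mlst8 without rGST 1, Akt1s1 without rGST 2, Ppp1r15b without rGST 3, Rraga without rSLURP1 1 and Rheb without rSLURP1 2. Slc38a2 was also gained without rGST 2, without rSLURP1 1 and without mitochondrial genes. It is 1 of the transporters chosen on this contrast, so nothing is read from its calls. The cause of these changes was not tested. The error of low TPM values from counting is unknown.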
